A study of Homo sapiens with 32 samples.

Results

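The RNA levels of 8 protein kinases of the DYRK and HIPK families, DYRK1A, DYRK1B, DYRK2, DYRK3, DYRK4, HIPK1, HIPK2 and HIPK3, were examined in 4 human endometrial cancer cell lines treated with a taxane, a CLK inhibitor or both drugs. The 8 genes were chosen by name, as relatives of the CDC-like kinases (CLK) that the inhibitor SM08502 targets and as its likely off-targets. All 8 were among the 35238 genes of the deposited table and among the 17011 genes that passed a filter of more than 1 CPM (reads per 1000000 counted) in at least 2 of 32 libraries. The remaining HIPK gene, HIPK4, is not among them and was listed between 0 and 0.41 CPM in every library.

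The lines were Ishikawa, labelled CTNNB1-wildtype, and Ishikawa-S33Y, SNGM and HEC265, labelled CTNNB1-mutated. CTNNB1 encodes beta-catenin, the transcriptional effector of Wnt signalling. Every line received for 24 h the vehicle (0.1% DMSO), paclitaxel, which stabilises microtubules, SM08502, or paclitaxel and SM08502 together (the combination). Each group comprised 2 replicates, giving 16 groups. The concentrations were those that reduced viability of the line by 50%: for Ishikawa 11 nM paclitaxel and 80 nM SM08502, for Ishikawa-S33Y 6 and 85 nM, for SNGM 11.7 and 350.7 nM and for HEC265 5.6 and 149 nM. Libraries were made from 350 ng of RNA for Ishikawa and from 500 ng for the other lines, so line, dose and RNA input cannot be told apart. The labels state that cells were plated in duplicate but not that cultures were independent, so p-values here measure the spread between these samples, which may be technical. Whether Ishikawa-S33Y is 1 clone or a pool is not given in the sources used here.

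DYRK and HIPK kinases belong, with the CLK, SRPK, CDK and GSK3 kinases, to the CMGC group. DYRK kinases phosphorylate a tyrosine in their own activation loop while they fold and afterwards act on serines and threonines of other proteins. HIPK kinases are mostly nuclear and modify transcription factors and corepressors, CtBP among them. Compounds that occupy the ATP pocket of CLK kinases often bind DYRK kinases as well. Transcript levels, which are what was measured here, say nothing of kinase activity or of binding by the drug.

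Depth was 13.03 to 34.1 M reads (M, 1000000) in 30 libraries, and lower in replicate 2 of the combination in Ishikawa-S33Y (2.99 M) and SNGM (1.61 M). Library composition was described by a length score: the average log2(CPM + 1) of 85 ribosomal protein genes, whose transcripts are short, was subtracted from the average of 26 long-transcript genes. It lay between -0.21 and 0.46 in SNGM, -0.75 and -0.26 in HEC265, -1.52 and -0.81 in Ishikawa-S33Y and -2.60 and -1.10 in Ishikawa. All 5 epithelial markers exceeded 1 CPM in each line, with summed levels of 702 to 2970.02 CPM. Of 5 markers of endometrial epithelium, 3 did so in HEC265, 3 in SNGM, 4 in Ishikawa-S33Y and 5 in Ishikawa. ESR1 averaged 0.15 CPM in HEC265, SOX17 0.0046 CPM in SNGM, and PGR 0.0084 CPM in SNGM, 0.0056 CPM in HEC265 and 0.917 CPM in Ishikawa-S33Y. Of 8 markers of other cells, 3 exceeded 1 CPM in HEC265 and 5 in each other line, and their summed level was 717 to 1169 CPM in Ishikawa-S33Y against 16.4 to 213 CPM in the other lines. COL1A1 made up most of that sum in Ishikawa-S33Y, with a mean of 945 CPM. The T-cell gene CD3E and the endothelial gene CDH5 stayed below 0.5 CPM, but other markers on this list did not. CD68 averaged 4.69 CPM in Ishikawa-S33Y, 19.8 CPM in Ishikawa, 24.97 CPM in SNGM and 24.7 CPM in HEC265. PECAM1 averaged 1.17 CPM in HEC265 to 3.05 CPM in SNGM, and PTPRC exceeded 1 CPM in every line except HEC265 (0.971 CPM). In bulk RNA a lower level in fewer cells and less RNA per cell cannot be told apart.

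Which of these kinases differed between the untreated lines was the first question. A gene was called when its adjusted p was under 0.05, from a limma model on log2(CPM + 1) with Benjamini-Hochberg adjustment over all 17011 genes. On vehicle, 7 of the 8 kinases differed between the 4 lines by the F test, all except DYRK4, and 86.9% of all genes tested did so too. HIPK2 and DYRK1B had the widest ranges of the 8 on this scale, in opposite directions. HIPK2 was lowest in Ishikawa and highest in SNGM. DYRK1B was highest in Ishikawa-S33Y and low, at 0.671 to 1.14 CPM, in SNGM and HEC265. The plot of levels by library shows every value.

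**Figure D1:**
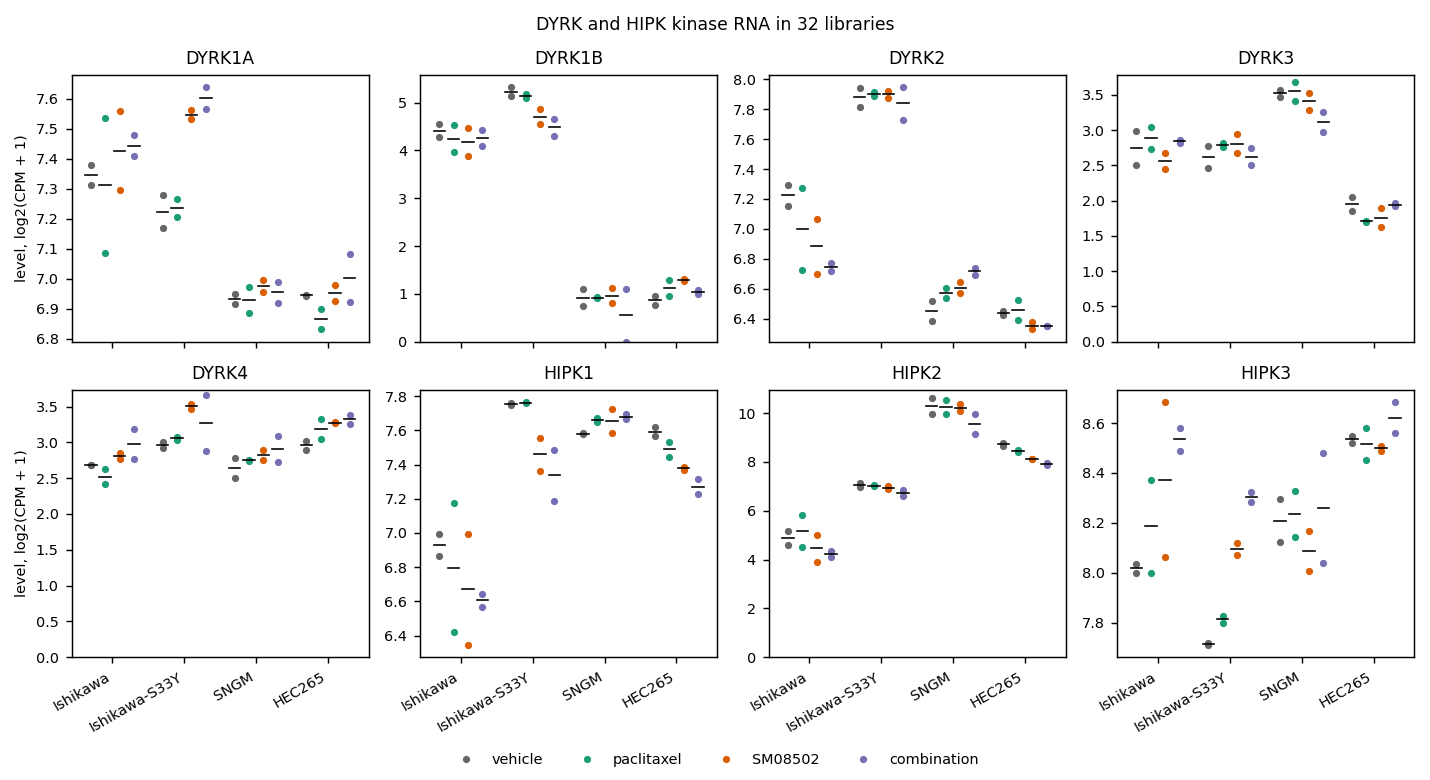
Level of each kinase as log2(CPM + 1), with its own vertical scale in each panel, in the 4 lines (horizontal axis) under vehicle, paclitaxel, SM08502 and the combination (colours). Points are the 2 replicates of a group and the bar is their mean; the DYRK1B libraries of SNGM and HEC265 sit at or below 1.47 CPM, and HIPK2 rises from Ishikawa over Ishikawa-S33Y and HEC265 to SNGM with no overlap between lines.

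DYRK1A, which phosphorylates splicing factors, NFAT proteins and the DREAM subunit LIN52, lies on chromosome 21 (37365573 to 37526358, GRCh38.p14). On vehicle the Ishikawa libraries measured 158 and 165 CPM, those of Ishikawa-S33Y 154 and 143 CPM, those of SNGM 122 and 119.6 CPM and those of HEC265 122 and 122 CPM. The values of the Ishikawa pair of lines thus lay above those of SNGM and HEC265 in every vehicle library, and this also held over all 8 libraries of each line. Against Ishikawa its log2 difference was -0.41 ± 0.11 (SE) in SNGM (adjusted p = 0.00248) and -0.40 in HEC265 (adjusted p = 0.00349). Neither Ishikawa-S33Y against Ishikawa (-0.12, 95% interval -0.35 to 0.11) nor HEC265 against SNGM (0.01, -0.22 to 0.24) passed the test.

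DYRK1B, the close paralog of DYRK1A and a kinase of quiescent and differentiating cells, lies on chromosome 19 (39825350 to 39834162). It measured 18.3 and 22.5 CPM on vehicle in Ishikawa and 39.0 and 34.4 CPM in Ishikawa-S33Y. In SNGM it measured 0.671 and 1.14 CPM and in HEC265 0.712 and 0.927 CPM. The mean was 40.5 times higher in Ishikawa-S33Y than in SNGM and 44.8 times higher than in HEC265. Over all treatments, the SNGM libraries held 0 to 39 reads of the gene and the HEC265 libraries 16 to 39, against 209 to 364 in Ishikawa. The library at 0, the 1.61 M replicate of the SNGM combination, had a floor of 3 reads that equals 1.87 CPM, so the gene was not measurable there. Ishikawa-S33Y exceeded Ishikawa by 0.82 ± 0.27 on the log2 scale (adjusted p = 0.0166), but this became 0.12 (adjusted p = 0.773) with the length score as covariate. Against Ishikawa the log2 difference was -3.49 in SNGM and -3.55 in HEC265, both called, and HEC265 against SNGM did not pass the test (-0.06, 95% interval -0.63 to 0.51).

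The promoters of DYRK1A and DYRK1B are shown because these paralogs ordered the lines alike in part (high in the Ishikawa pair, low in SNGM and HEC265) while their ranges differed greatly. RefSeq windows of 300 bases (250 before to 50 after an annotated start, GRCh38.p14) were found for 6 of the 8 kinases, 19 windows in all. They were searched on both strands for 4 short motifs: the E-box CACGTG, a YY1-like GCCATNTT, an NRF1-like GCGCATGCG and a TCF/LEF-like CTTTGAT. The single DYRK1B window is chr19:39834113-39834412, minus strand, and 1 of the 6 DYRK1A windows, chr21:37366523-37366822, plus strand, had matches. Capitals mark the matches, and both sequences read 5′ to 3′ in the direction of the gene.
DYRK1B: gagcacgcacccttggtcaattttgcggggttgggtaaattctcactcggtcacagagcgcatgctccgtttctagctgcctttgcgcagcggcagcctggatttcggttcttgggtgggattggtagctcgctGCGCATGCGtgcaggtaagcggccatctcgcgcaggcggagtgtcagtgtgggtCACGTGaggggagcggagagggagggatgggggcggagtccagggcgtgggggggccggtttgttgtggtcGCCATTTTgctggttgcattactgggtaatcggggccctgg
DYRK1A: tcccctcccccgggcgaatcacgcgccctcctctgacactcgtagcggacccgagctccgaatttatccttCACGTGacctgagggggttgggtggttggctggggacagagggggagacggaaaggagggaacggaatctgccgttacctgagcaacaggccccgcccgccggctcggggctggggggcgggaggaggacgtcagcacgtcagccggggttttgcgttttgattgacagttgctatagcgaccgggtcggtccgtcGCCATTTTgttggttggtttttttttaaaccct
The DYRK1B window held an E-box that began 62 bases before the start, an NRF1-like match 116 bases before it and a YY1-like match at base 10 after it. In the DYRK1A window the E-box began 179 bases before the start and the YY1-like match at base 18 after it. An E-box was present in 7.26% of all 35116 windows, the YY1-like letters in 6.58% and the NRF1-like letters in 1.92%. The TCF/LEF-like letters, present in 2.62% of all windows, occurred in 1 HIPK1 window (chr1:113950895-113951194, 69 bases before the start) and in no other window of these kinases. No motifs overlapped one another, and a match describes letters only.

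DYRK2, which acts as scaffold and kinase of the EDD-DDB1-DCAF1 ubiquitin ligase and phosphorylates katanin, lies on chromosome 12 (67648745 to 67665406). On vehicle the Ishikawa libraries measured 142 and 156 CPM, those of Ishikawa-S33Y 245 and 224, those of SNGM 90.4 and 82.4 and those of HEC265 84.7 and 86.4. Ishikawa-S33Y was the highest line in all 8 of its libraries (211 to 246 CPM), above every library of the other lines. The difference from Ishikawa was 0.65 ± 0.13 (adjusted p = 0.00037), which was 0.27 (adjusted p = 0.0613) with the length score as covariate. The log2 differences of SNGM and HEC265 were -0.78 and -0.79 from Ishikawa and -1.43 and -1.44 from Ishikawa-S33Y, all 4 called, and HEC265 against SNGM did not pass the test (-0.013, 95% interval -0.29 to 0.26).

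DYRK3, which dissolves condensates such as stress granules and nuclear speckles, lies on chromosome 1 (206635536 to 206655158). On vehicle SNGM measured 10.9 and 10.1 CPM, Ishikawa 6.97 and 4.68, Ishikawa-S33Y 5.86 and 4.53 and HEC265 2.63 and 3.13. SNGM was highest and HEC265 lowest (HEC265 against SNGM, -1.57 ± 0.18 on the log2 scale, adjusted p = 1.93e-07), and the Ishikawa pair lay between with no called difference from each other. The lower level of HEC265 than of Ishikawa (-0.80) and of Ishikawa-S33Y (-0.67) became 0.063 and 0.31 after quantile normalization, whereas median re-centring kept the direction and the call (-0.58 and -0.49). DYRK4, a less studied kinase of the second DYRK class (chromosome 12, 4562208 to 4613875), ran on vehicle from 4.69 CPM in an SNGM library to 7.14 CPM in a HEC265 library, and no difference between lines passed the test (F test adjusted p = 0.249). The antisense genes DYRK3-AS1 and HIPK1-AS1 overlap DYRK3 and HIPK1 in RefSeq. Whether counting used strand is not given in the sources used here, and without it reads from a gene and its antisense partner cannot be told apart.

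HIPK1 (chromosome 1, 113929324 to 113977869), a nuclear kinase that overlaps HIPK2 in function, measured on vehicle 115 and 127 CPM in Ishikawa, against 214 and 216 CPM for Ishikawa-S33Y, 190.2 and 191 for SNGM and 195 and 188 for HEC265. Ishikawa was lowest: Ishikawa-S33Y exceeded it by 0.83 ± 0.18 on the log2 scale (adjusted p = 0.000679), SNGM by 0.65 and HEC265 by 0.66, all called. With the length score as covariate these 3 differences were 0.23, -0.54 and -0.23, so the order of HIPK1 between lines turned with that covariate. HIPK3 (chromosome 11, 33256672 to 33357023), a cytoplasmic and nuclear member, measured 374 and 366 CPM in HEC265, 313 and 278 CPM in SNGM, 255 and 261 CPM in Ishikawa and 208 and 209.6 CPM in Ishikawa-S33Y. HEC265 exceeded Ishikawa by 0.52 ± 0.16 (adjusted p = 0.00691) and Ishikawa-S33Y by 0.82 (adjusted p = 0.000119), and SNGM exceeded Ishikawa-S33Y by 0.49 (adjusted p = 0.00993). Its other 3 pairs of lines, Ishikawa-S33Y or SNGM against Ishikawa and HEC265 against SNGM, did not pass the test.

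HIPK2 (chromosome 7, 139561570 to 139777998), a kinase of CtBP that acts in DNA damage responses and Wnt signalling, had the widest range of the HIPK genes. On vehicle SNGM measured 997 and 1561 CPM, HEC265 433 and 406, Ishikawa-S33Y 139.9 and 125 and Ishikawa 23.1 and 35.3. No line overlapped another over its 8 libraries: the highest Ishikawa library (55.4 CPM) lay below the lowest of Ishikawa-S33Y (97.4), the highest there (139.9) below the lowest of HEC265 (232), and the highest there (433) below the lowest of SNGM (572). All 6 pairs of lines were called. The mean was 4.53 times higher in Ishikawa-S33Y than in Ishikawa (log2 difference 2.17 ± 0.35, adjusted p = 3.01e-05), 14.4 times higher in HEC265 (3.83, adjusted p = 3.47e-09) and 43.8 times higher in SNGM (5.40, adjusted p = 1.01e-11).

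The 4 lines stood in the same order for HIPK2 and for the length score, and in 13 of the 16 groups the replicate with the lower score also had the lower HIPK2 level. In Ishikawa, replicate 1 of paclitaxel had a length score of -1.10 and a HIPK2 level of 55.4 CPM, and replicate 2 had -2.60 and 22.0 CPM. With the length score as covariate the HIPK2 differences from Ishikawa were 0.90 in Ishikawa-S33Y, 1.92 in HEC265 and 2.87 in SNGM, all still called (adjusted p from 1.57e-08 to 0.000499). The part of library composition in these differences was not tested beyond that covariate, since score and line vary together. The replicate with the lower score had the lower HIPK1 level in 12 of the 16 groups and the lower HIPK3 level in 7. Over the 8 libraries of a line, HIPK3 ran opposite to the score in Ishikawa (r = -0.72), Ishikawa-S33Y (-0.88) and SNGM (-0.70). In HEC265 r was -0.03. These libraries include the drug groups, and the part of composition in the HIPK3 changes was not tested beyond the covariate.

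**Figure D2:**
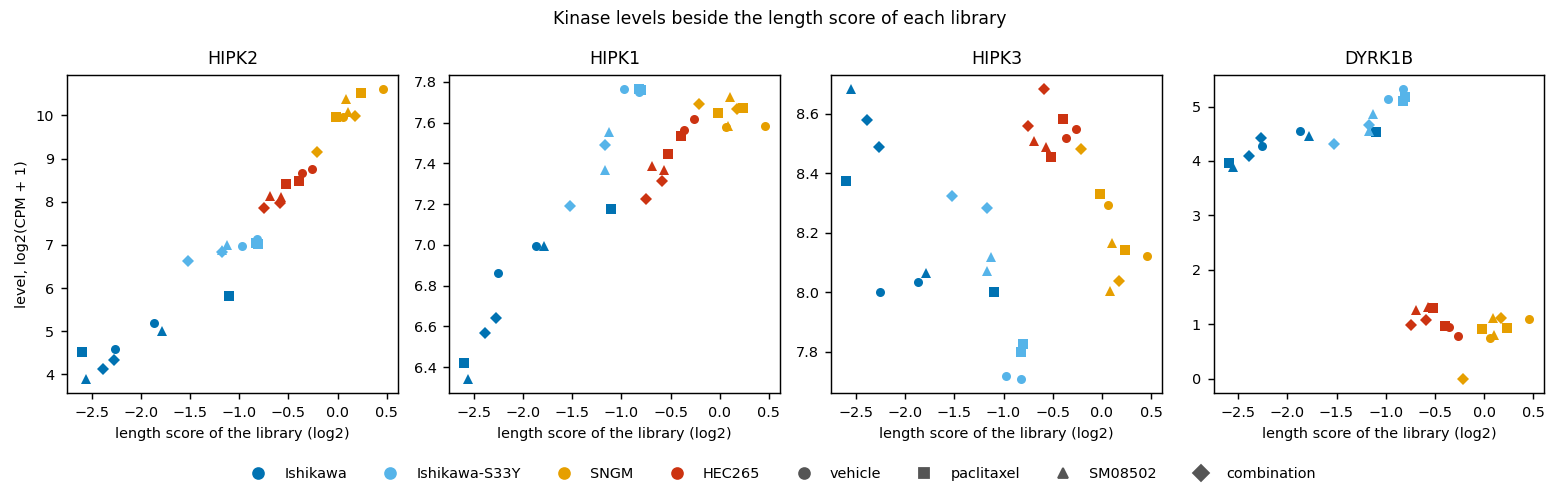
Levels of HIPK2, HIPK1, HIPK3 and DYRK1B as log2(CPM + 1) (vertical axes, each with its own scale) against the length score of the library on a log2 scale (horizontal axis), 1 point per library, coloured by line and shaped by treatment. HIPK2 rises with the score across and within lines, from 14.0 CPM at a score of -2.56 to 1561 CPM at 0.46, whereas DYRK1B is at or below 1.47 CPM in SNGM and HEC265 and at or above 13.9 CPM in the other lines.

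By pair of lines on vehicle, 4 kinases were called between Ishikawa-S33Y and Ishikawa, namely DYRK1B, DYRK2, HIPK1 and HIPK2, all higher in Ishikawa-S33Y, where 48.3% of all genes were called. Against Ishikawa, SNGM had 6 called kinases (66.8% of all genes) and HEC265 had 7 (63.3%). Against Ishikawa-S33Y, SNGM had 6 (60.8%) and HEC265 had 6 (58% of all genes). Between HEC265 and SNGM only DYRK3 and HIPK2 were called, 2 of 8 beside 54.9% of all genes. Re-centring the libraries on their medians moved the median of all genes on the log2 scale. The shift was 0.14 for SNGM and 0.21 for HEC265 against Ishikawa, and 0.11 for SNGM and 0.19 for HEC265 against Ishikawa-S33Y. Line differences of that size or less thus depend on the scaling, and some larger ones did too. In HEC265 against Ishikawa, DYRK1A went from -0.40 to -0.18 on re-centring, and DYRK3 from -0.80 to 0.063 with quantile normalization.

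The next question was whether 24 h of SM08502 altered the RNA of these kinases. The changes were small: over the 4 lines and 8 kinases they ran from -0.59 to 0.54 on the log2 scale, and few were called. With limma, 2 of 8 kinases were called in Ishikawa-S33Y, where 29.1% of all genes were, 0 in Ishikawa (15.2%), 0 in HEC265 (14.7%) and 0 in SNGM (7.86%). Unadjusted p-values under 0.05 were found for 3 kinases in Ishikawa-S33Y, 2 in Ishikawa and 0 in HEC265 or SNGM, and limma voom on the recovered reads called 3 kinases in Ishikawa-S33Y (34.5% of all genes) and 0 in HEC265 (21.5%), Ishikawa (17%) and SNGM (15.3%). As the mean of the 4 lines, 1 kinase was called beside 38.5% of all genes. The median change of the 8 was -0.21 in Ishikawa beside 0.0025 over all genes, 0.10 in Ishikawa-S33Y beside 0.11, 0.04 in SNGM beside 0 and -0.06 in HEC265 beside 0.07.

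**Figure D3:**
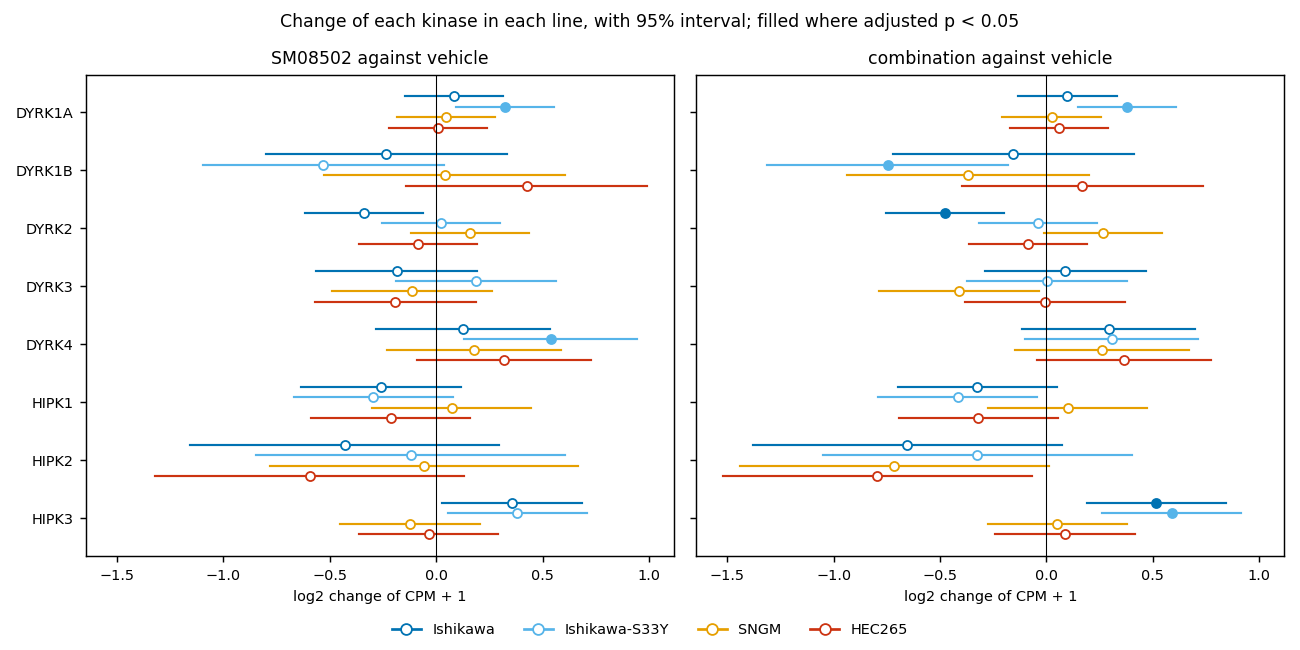
Change of each kinase against vehicle on the log2(CPM + 1) scale (horizontal axis) with SM08502 (left) and with the combination (right), for the 4 lines (colours). Points are the limma estimates, bars their 95% intervals and filled points those with an adjusted p under 0.05; DYRK4 lies above 0 and HIPK2 below 0 in all 4 lines with either treatment, and most intervals include 0.

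DYRK1A rose with SM08502 in Ishikawa-S33Y, from 154 and 143 CPM to 188 and 184 CPM. With the combination it measured 199 and 189 CPM there, and with paclitaxel alone 153 and 147 CPM. The 4 libraries with SM08502 thus lay above the 4 without, by 1.27 times in the mean. The log2 change was 0.32 ± 0.11 for SM08502 (adjusted p = 0.0333) and 0.38 for the combination (adjusted p = 0.00902), the first no longer called when any 1 vehicle or SM08502 library of the line was left out (adjusted p 0.0673 to 0.203). The combination call was lost without vehicle replicate 2 (adjusted p = 0.0835) or combination replicate 1 (adjusted p = 0.054). Elsewhere the change with SM08502 was 0.08 in Ishikawa, 0.05 in SNGM and 0.01 in HEC265, none called, and the values overlapped. Within lines the r of DYRK1A with the length score was -0.86 in Ishikawa-S33Y, 0.71 in Ishikawa, -0.21 in SNGM and -0.09 in HEC265. The part of composition in the DYRK1A changes was not tested beyond the covariate.

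DYRK4 was the only kinase called over the mean of the lines with SM08502, at 0.29 ± 0.10 (adjusted p = 0.0237), with a change above 0 in each of the 4. It measured 6.6 and 7.04 CPM on vehicle and 10.1 and 10.6 CPM with SM08502 in Ishikawa-S33Y, a change of 0.54 (adjusted p = 0.0443). That call was lost under 11 alternatives, with an adjusted p from 0.0514 with quantile normalization to 0.183 without SM08502 replicate 2. In HEC265 it measured 6.41 and 7.14 CPM on vehicle and 8.75 and 8.61 CPM with SM08502, but paclitaxel alone gave 9.06 and 7.29 CPM, and the change of 0.32 was not called. In Ishikawa the 4 libraries with SM08502 (5.8 to 8.14 CPM) lay above the 4 without (4.35 to 5.45 CPM) although neither contrast was called. The mean over lines lost its call without SNGM vehicle replicate 2, SNGM SM08502 replicate 1 or HEC265 vehicle replicate 1 (adjusted p of 0.0639, 0.0541 and 0.0547). Within lines DYRK4 ran opposite to the length score, with r = -0.92 in HEC265, -0.73 in Ishikawa-S33Y, -0.57 in Ishikawa and -0.25 in SNGM. The part of composition in the DYRK4 changes was not tested beyond the covariate.

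DYRK1B fell with the combination in Ishikawa-S33Y. There it went from 39.0 and 34.4 CPM on vehicle to 28.1 and 22.4 CPM with SM08502 and 18.8 and 24.4 CPM with the combination, beside 35.1 and 33.3 CPM with paclitaxel. All 4 libraries with SM08502 were below the 4 without, 0.66 times in the mean. The change was called for the combination (-0.75 ± 0.27, adjusted p = 0.0325) and not for SM08502 (-0.53, adjusted p = 0.156). The length score was lower in the same 4 libraries (-1.52 to -1.12) than in the others (-0.97 to -0.81), and with it as covariate the combination change was -0.48 (adjusted p = 0.0791). The call was lost under 6 alternatives in all, with an adjusted p up to 0.369 at a pseudocount of 0.1, and without either vehicle replicate or combination replicate 1. In HEC265 the values were 0.712 and 0.927 CPM on vehicle and 1.47 and 1.41 CPM with SM08502, a change of 0.43 that was not called.

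DYRK2 fell with the combination in Ishikawa, from 142 and 156 CPM on vehicle to 108 and 105 CPM (-0.48 ± 0.13, adjusted p = 0.0135). With SM08502 alone it measured 133 and 103 CPM (-0.34, adjusted p = 0.0887), and with paclitaxel alone 154 and 105 CPM, so the single-drug libraries spanned both groups. The call was absent when only the Ishikawa libraries set the spread (adjusted p = 0.211) and without vehicle replicate 2 or either combination replicate (0.0547 to 0.119). In HEC265 the 4 libraries with SM08502 (79.3 to 82.0 CPM) lay below the 4 without (82.8 to 91.1 CPM), 0.935 times in the mean, with no call. DYRK3 was called in no drug comparison of any line, with changes from -0.41 to 0.19 for SM08502 and the combination.

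HIPK2 was below its vehicle level in all 4 lines with SM08502 and with the combination. With SM08502 HIPK2 changed sign under 1 alternative in Ishikawa (to 0.12), 1 in Ishikawa-S33Y (to 0.15) and 3 in SNGM (up to 0.27). In HEC265 it measured 433 and 406 CPM on vehicle, 337 and 357 CPM with paclitaxel, 274 and 281 CPM with SM08502 and 232 and 251 CPM with the combination. The 4 groups did not overlap, and the libraries with SM08502 averaged 0.677 times those without. In the fit to all 32 libraries this change was -0.59 ± 0.35 for SM08502 (adjusted p = 0.309) and -0.79 for the combination (adjusted p = 0.121), not called. With the HEC265 libraries alone setting the spread the changes were -0.59 ± 0.05 (adjusted p = 1.22e-07) and -0.79 (adjusted p = 3.47e-09). Paclitaxel was also called in that fit (-0.27, adjusted p = 0.04). The length score of HEC265 was -0.26 and -0.36 on vehicle and -0.57 and -0.69 with SM08502, and with it as covariate the SM08502 change was -0.25 (adjusted p = 0.226).

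In the other lines HIPK2 varied more between replicates. Ishikawa measured 23.1 and 35.3 CPM on vehicle, 31.2 and 14.0 CPM with SM08502 and 19.3 and 16.4 CPM with the combination. SNGM measured 997 and 1561 CPM on vehicle, 1337 and 1075 CPM with SM08502 and 1009 and 572 CPM with the combination, the last from the 1.61 M library. SM08502 and vehicle overlapped in both. In Ishikawa-S33Y it measured 139.9 and 125 CPM on vehicle and 97.4 and 114 CPM with the combination (-0.32, adjusted p = 0.487), a change of 0.16 with the length score as covariate. Over the mean of the lines HIPK2 fell by 0.62 on the log2 scale with the combination (SE 0.17, below vehicle in 4 of 4 lines, adjusted p = 0.00548), a call present under every alternative run (-0.72 to -0.26), and changed by -0.30 with SM08502 (adjusted p = 0.186).

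HIPK1 was not called in any single line. In Ishikawa-S33Y it measured 214 and 216 CPM on vehicle, 215 and 216 CPM with paclitaxel, 187 and 164 CPM with SM08502 and 145 and 179 CPM with the combination. In HEC265 it measured 195 and 188 CPM on vehicle, 173 and 184 CPM with paclitaxel, 164 and 166 CPM with SM08502 and 149 and 158 CPM with the combination. In both lines the 4 libraries with SM08502 were below the 4 without, by 0.782 and 0.86 times in the mean, and the SM08502 changes were -0.30 (adjusted p = 0.233) and -0.21 (adjusted p = 0.533). In Ishikawa SM08502 gave 127 and 80.3 CPM beside 115 and 127 CPM on vehicle, which overlap (-0.26, adjusted p = 0.363), and the change was 0.065 without SM08502 replicate 2. SNGM showed no such split, with 190.2 and 191 CPM on vehicle and 191 and 211 CPM with SM08502. Over the mean of the lines the combination lowered HIPK1 by a log2 change of -0.24 ± 0.09 (adjusted p = 0.0311). That call was lost under 9 alternatives, among them the length score as covariate (-0.069, adjusted p = 0.276).

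HIPK3 went the other way in the Ishikawa pair of lines. In Ishikawa-S33Y it measured 208 and 209.6 CPM on vehicle, 226 and 222 CPM with paclitaxel, 277 and 268 CPM with SM08502 and 319 and 311 CPM with the combination. These 4 groups did not overlap, and the libraries with SM08502 averaged 1.36 times those without. The combination change of 0.59 ± 0.16 was called (adjusted p = 0.00484) under every alternative run (0.43 to 0.62), and the SM08502 change of 0.38 was not (adjusted p = 0.0751). In Ishikawa it measured 255 and 261 CPM on vehicle, 267 and 410.0 CPM with SM08502 and 358 and 382 CPM with the combination (0.52, adjusted p = 0.0225). That call was lost when the Ishikawa libraries alone set the spread (adjusted p = 0.206) and without any 1 of the 4 vehicle and combination libraries (0.0677 to 0.139). SNGM (313 and 278 CPM on vehicle, 256 and 286 with SM08502) and HEC265 (374 and 366, then 358 and 363) had log2 changes with SM08502 of -0.12 and -0.04, not called.

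With the combination, 2 kinases were called in Ishikawa (DYRK2 and HIPK3), where 22.8% of all genes were, and 3 in Ishikawa-S33Y (DYRK1A, DYRK1B and HIPK3) beside 42% of all genes. By limma 0 were called in SNGM (18.4% of all genes) and 0 in HEC265 (19.5%), with 1 kinase in each at an unadjusted p under 0.05 and 0 in each by limma voom. Without the shallow libraries the changes in Ishikawa-S33Y were 0.70 for DYRK4 and -0.57 for HIPK1, but only 1 combination library is then left there. That library measured 11.7 CPM for DYRK4 and 145 CPM for HIPK1, and the one left out 6.35 and 179 CPM. Over the mean of the lines 5 of 8 were called beside 49.1% of all genes: DYRK1A (0.14 ± 0.06), DYRK4 (0.31 ± 0.10) and HIPK3 (0.31 ± 0.08) rose, and HIPK1 and HIPK2 fell. That of DYRK1A, with an adjusted p of 0.0418, was lost under 16 alternatives. Comparisons with the same vehicle libraries share them, so the values for SM08502 and for the combination are not independent of each other.

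All 32 libraries share 1 estimate of the spread in these tests. In fits to a single line, 4 kinases were called with SM08502 in Ishikawa-S33Y (DYRK1A, DYRK1B, HIPK1 and HIPK3) beside 45.4% of all genes tested there, and 4 in HEC265 (DYRK1B, DYRK4, HIPK1 and HIPK2) beside 57.7%. The DYRK1B call in HEC265 (limma, adjusted p = 0.0496) rests on 16 and 24 reads on vehicle and 33 and 39 with SM08502. The single-line fits called 0 in Ishikawa (0.575% of all genes) and 0 in SNGM (2.03%). The 4 of 8 in Ishikawa-S33Y and HEC265 were near these shares. Libraries with SM08502, alone or in the combination, did not overlap with the 4 without for 4 kinases in Ishikawa-S33Y, where this held for 54.7% of all genes, and for 3 in HEC265 (48.8%). It held for 1 in Ishikawa (20.5%) and 0 in SNGM (22.1%). Each of these counts of kinases without overlap was a smaller share of 8 than that of all genes.

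Whether the lines differed in their SM08502 response was tested directly. For 0 of 8 kinases did the limma F test find a response that differed between any 2 lines, beside 12.4% of all genes, and 0 had an unadjusted p under 0.05 or a call by limma voom. The smallest adjusted p was 0.215, for HIPK3. In single contrasts, DYRK2 responded 0.50 higher in SNGM than in Ishikawa (95% interval 0.11 to 0.89, adjusted p = 0.147) and DYRK1B 0.96 higher in HEC265 than in Ishikawa-S33Y (0.15 to 1.76, adjusted p = 0.165). HIPK3 responded less in SNGM than in Ishikawa (-0.48, -0.94 to -0.015, adjusted p = 0.248) and than in Ishikawa-S33Y (-0.50, -0.97 to -0.041, adjusted p = 0.161). These 4 contrasts had an unadjusted p under 0.05 and none was called. DYRK1B had only 16 to 39 reads a library in HEC265. In a fit to the 16 libraries of HEC265 and Ishikawa-S33Y alone, 4 kinases were called beside 26.7% of all genes: DYRK1B (adjusted p = 0.00524), DYRK1A (-0.32, adjusted p = 0.014), HIPK2 (-0.47, adjusted p = 0.00607) and HIPK3 (-0.42, adjusted p = 0.00122). Like fits to the other 5 pairs of lines called 0 kinases by limma, beside 0.135% to 9.23% of all genes.

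In the limma fit to HEC265 alone, paclitaxel called HIPK2 (-0.27, adjusted p = 0.04), beside 0.264% of all genes tested there. In the fit to all 32 libraries paclitaxel called 0 of the 8 kinases in any line by limma. There 0 had an unadjusted p under 0.05, and limma voom called 0. Of all genes, 0.0176% were called in SNGM, 0.0118% in Ishikawa, 0.00588% in HEC265, 0% in Ishikawa-S33Y and 0% for the mean of the lines. Changes ran from -0.27 (HIPK2 in HEC265) to 0.28 (HIPK2 in Ishikawa). The combination against SM08502 likewise called 0 of 8 in each line and over their mean, beside 0.00588% of all genes in HEC265, 0.253% in SNGM, 0.129% in Ishikawa-S33Y, 0% in Ishikawa and 0.047% for the mean. In the mean over lines 1 kinase, HIPK3, had an unadjusted p under 0.05 (0.17 ± 0.08, adjusted p = 0.427), and limma voom called 0.

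Genes with related roles give the background for these changes. Of 20 other CMGC kinases, 19 were tested. Over the mean of the lines with SM08502, 10 of them rose and 1 (CDK19) fell, beside 38.5% of all genes called. Their median log2 change was 0.21, beside 0.05 over all genes and -0.07 over the 8 kinases. Those named were CLK1 (1.53 ± 0.07), CLK4 (1.46) and CLK3 (1.10), the targets of the drug, and CDK9 (0.93), the kinase of transcription elongation, all called. CLK1 rose by 1.81 in HEC265, 1.04 in SNGM, 1.70 in Ishikawa-S33Y and 1.58 in Ishikawa, where the highest change of a DYRK or HIPK gene in any line was 0.54. Of the 19, 10 rose in Ishikawa-S33Y, where 29.1% of all genes were called, and 6 in Ishikawa (15.2%). In SNGM (7.86%) and HEC265 (14.7%) 5 rose in each, and 0 of the 19 fell in any of the 4 lines by limma.

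**Figure D4:**
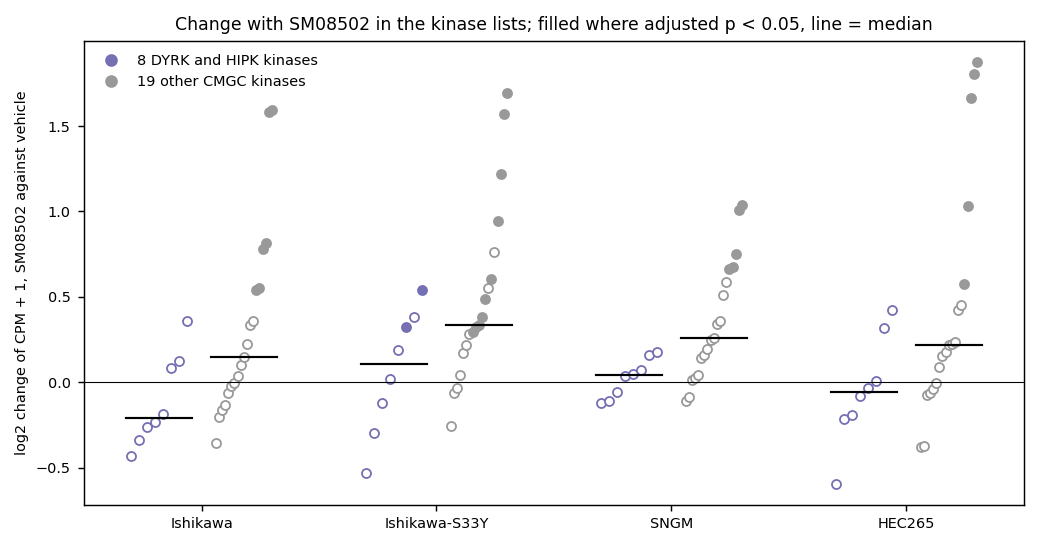
Log2 change of CPM + 1 with SM08502 against vehicle (vertical axis) in the 4 lines, for the 8 DYRK and HIPK kinases (purple) and 19 other CMGC kinases (grey). Filled points have an adjusted p under 0.05 and bars are medians; the highest grey points in each line include CLK1 (1.04 to 1.81), and the purple points lie between -0.59 and 0.54.

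The DREAM complex represses cell cycle genes in quiescence and is assembled after DYRK1A phosphorylates LIN52. The list of 13 genes holds members of the complex and, in addition, the DYRK1A scaffold DCAF7 and MYBL2. Of these 13, 3 rose and 3 fell with SM08502 over the mean of the lines, with a median of 0.05. LIN52 (0.31) and the pocket protein RBL1 (0.29) rose, and RBL2 (-0.29), its relative, and MYBL2 (-0.28), the MuvB partner of cycling cells, fell. Of 12 calcineurin and NFAT genes, whose nuclear NFAT proteins DYRK kinases send back to the cytoplasm, 3 rose and 3 fell, with a median of -0.06. The calcineurin catalytic subunits moved apart, PPP3CA to -0.48 and PPP3CC to 0.44, both called. The calcineurin regulator RCAN2 fell in the mean (-0.39) but by line was called only in SNGM (-1.06). In HEC265, where RCAN2 averaged 0.717 CPM on vehicle, its change was 0.15. NFAT5 rose (0.28).

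Of 16 other DYRK substrates and partners, 4 rose and 2 fell, with a median of 0.16. KATNA1 (0.31), the katanin subunit that DYRK2 marks for degradation, EIF2B5 (0.29) and the splicing factor SF3B1 (0.26) rose, and the cell cycle inhibitor CDKN1B (-0.27) fell. Of 22 HIPK partners and regulators, 4 rose and 2 fell, with a median of -0.04. The chromatin protein HMGA1 fell in the mean (-0.30), but its direction differed by line. It was lower in Ishikawa (-0.96) and Ishikawa-S33Y (-0.65) and higher in SNGM (0.56), all called, and not called in HEC265 (-0.15). The HIPK partner DAXX rose in the mean (0.26), with a change of -0.14 in Ishikawa that was not called. These lists were written with earlier results of these data known, and their counts stand beside 38.5% of all genes called.

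The genes whose levels followed each kinase most closely over the 16 group means were found by Pearson's r among the 12117 other genes with a mean log2 level of at least 2. These coefficients are descriptions, since the 16 means come from 4 lines and share line, libraries and depth. For DYRK1B they were FN3K (0.996), TGFB1I1 and WLS (0.995 each), and for HIPK2 ARHGEF12 (0.995), NOTCH2 and GPRC5A (0.992 each). DYRK1A was nearest to RPL27A (0.989), ZNF331 and HIST1H4I, DYRK2 to COL6A1 (0.981), SLITRK2 and UNC13A, and DYRK3 to ST6GAL1 (0.976), SERPINE2 and PTPRD. HIPK1 was nearest to ANO6 (0.979), SEMA6B and NUAK2. The nearest genes of DYRK4 were NDUFC2 (0.939), MTG2 and TYK2, and those of HIPK3 MORF4L2 (0.941), LEPROTL1 and FBXO28. Among the kinases themselves, DYRK1A and DYRK1B (r = 0.88), DYRK1B and DYRK2 (0.85) and HIPK1 and HIPK2 (0.82) ran together, and HIPK2 ran opposite to DYRK1A (-0.79) and DYRK1B (-0.80).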

How the data were processed

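Per gene and library, the table holds log10(CPM + 1), as deposited; bcl2fastq, kallisto, STAR and the build GRCh38 are named in the submitters' processing notes without their roles. They were taken back to CPM, and whole reads, recovered for 100% of values within 0.05 reads, gave the depth. Groups came from the labels. Genes above 1 CPM in at least 2 libraries were kept (17011), and limma 3.58.1 (R 4.3.3) was fitted to log2(CPM + 1) of all 32 libraries with 1 mean per group, empirical Bayes moderation and an intensity trend (16 residual degrees of freedom, prior 4.90). Tests were two-sided, with Benjamini-Hochberg adjustment over all genes. Changes on this scale understate those of low genes. The fit was tested on simulated counts with the same dispersion for all genes and lines. Spread between the real replicates differed by group, which that test does not cover.

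The kinases, lists, motifs and tests were chosen with earlier results of these data known. From each list the text names up to 4 called genes with the largest change under SM08502 over the mean of the lines, and per kinase the 3 nearest genes by Pearson's r. Alternatives were other filters, pseudocount, scalings, no trend, limma voom on recovered reads, a replicate block, a length score covariate, fits to the compared lines and leaving out each library. Leaving out the shallow libraries or the Ishikawa line was added after seeing the data. Gene positions and promoters are from RefSeq. Splicing tables were not used here. Some genes that the naming rule selects are not reported here.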

Additional observations from a re-analysis of the deposited data

How the results depend on the processing

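Of 144 single values (8 kinases in 18 comparisons), 44 were called as reported, and of these 22 kept call and direction under every alternative, 19 lost the call under at least 1 and 4 changed sign under at least 1 (some did both). A further 65 were never called, of which 41 changed sign under an alternative, all at most 0.65 in size. The number of kinases that differed between untreated lines was 7 under every alternative except quantile normalization, which gave 8. The replicate numbers did not pair the samples: differences between replicates 2 and 1, correlated between treatments of a line, ranged from -0.57 to 0.86 in Ishikawa and -0.65 to 0.84 in SNGM. The replicate block gave 4 called kinases with the combination in Ishikawa-S33Y, against 3 without it, and 5 over the mean of the lines. DYRK1B rests on few reads in SNGM (0 to 39 a library) and HEC265 (16 to 39), and depth limits every gene in the 2 shallow libraries.

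Leaving out 1 library at a time gave, with SM08502, 0 to 3 called kinases in Ishikawa, 0 to 2 in Ishikawa-S33Y and 0 to 4 over the mean of the lines; with the combination, 0 to 2 in Ishikawa, 1 to 4 in Ishikawa-S33Y, 0 to 3 in SNGM and 3 to 5 over the mean; and 0 to 1 for responses that differ between lines. The highest counts came without Ishikawa SM08502 replicate 1 (3 in Ishikawa, 4 over the mean) and without SNGM combination replicate 1 (3 in SNGM, the 1.61 M library then standing alone and assumed to vary like the other groups). The counts of 0 came without any vehicle or SM08502 library in Ishikawa-S33Y, and over the mean with SM08502 without SNGM vehicle replicate 2, SNGM SM08502 replicate 1 or HEC265 vehicle replicate 1. For the combination they came, in Ishikawa, without vehicle replicate 2 or either combination library, and the 1 in Ishikawa-S33Y without vehicle replicate 2 or combination replicate 1. With SM08502 the length score covariate gave 2 in Ishikawa, 1 in HEC265 and 2 over the mean, where median re-centring also gave 2 and leaving out the Ishikawa line 3. In Ishikawa-S33Y 1 was called without a filter, with a pseudocount of 0.1 and after re-centring, 3 with quantile normalization, limma voom and the length score covariate, and 4 without the shallow libraries. Fits to single lines gave 4 there (45.4% of all genes tested in that line) and 4 in HEC265 (57.7%). With the combination, single lines gave 0 in Ishikawa (3.01% of all genes tested there), 5 in Ishikawa-S33Y (57.1%) and 3 in HEC265 (63.3%). In HEC265 with the combination, re-centring gave 2 and the covariate 1. The covariate gave 2 in SNGM, 3 over the mean (also 3 without a filter) and 2 for responses that differ between lines. The cause was not tested. For the other counts under alternatives in this section, the share of all genes is not given. They are therefore not read as results about the kinases.

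Values that changed sign follow, for those called as reported or under an alternative. With the length score covariate, HIPK1 on vehicle became -0.54 (SNGM against Ishikawa) and -0.23 (HEC265 against Ishikawa), HIPK2 with the combination in Ishikawa-S33Y 0.16, DYRK4 in HEC265 against Ishikawa-S33Y 0.11 and DYRK1B in HEC265 against SNGM 0.28. Quantile normalization gave DYRK3 in HEC265 0.063 against Ishikawa and 0.31 against Ishikawa-S33Y, DYRK4 0.65 against Ishikawa-S33Y, DYRK1B 0.51 and HIPK1 -0.093 against SNGM. Re-centring gave DYRK4 0.18 and HIPK1 0.020 in HEC265 against Ishikawa-S33Y and DYRK1B 0.015 against SNGM. DYRK1B with the combination in SNGM was 0.024 by limma voom and 0.18 without the shallow libraries. Leaving out 1 library gave ranges of -0.59 to 0.065 for HIPK1 with SM08502 in Ishikawa, -0.089 to 0.70 for DYRK4 with the combination in Ishikawa-S33Y and -0.92 to 0.18 for DYRK1B with the combination in SNGM. On vehicle the ranges were -0.078 to 0.058 for DYRK4 in HEC265 against Ishikawa-S33Y, and in HEC265 against SNGM -0.24 to 0.12 for DYRK1B and -0.017 to 0.036 for HIPK1.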
